A study of Homo sapiens with 19 samples.

Results

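The extracellular matrix is cut by 2 related groups of secreted or membrane-bound metalloproteases, the matrix metalloproteinases (MMPs) and the ADAMTS proteases, and both are held in check by the tissue inhibitors of metalloproteinases (TIMPs). The genes were chosen by name alone: every protein-coding gene whose symbol is MMP, ADAMTS or TIMP followed by its number, 46 genes in all (23 MMP, 19 ADAMTS and 4 TIMP). Of these, 43 had a row in the read counts (20 MMP, 19 ADAMTS and 4 TIMP) among 44717 gene identifiers, and MMP12, MMP26 and MMP28 were not analysed here. MMP7, MMP13 and MMP27 had no row in the shMITF libraries of Hermes 3A. In the comparisons of silenced with control cells, 37 of the 43 genes held enough counts for a test in at least 1 comparison, and ADAMTS8, ADAMTS19, MMP7, MMP13, MMP27 and TIMP4 were tested in none.

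RNA-seq libraries of total RNA depleted of ribosomal RNA came from 501Mel, a human melanoma cell line, and Hermes 3A, an immortalised human melanocyte line. Each line was infected with lentiviral vectors expressing a short hairpin RNA (shRNA) against BRG1, the ATPase of the SWI/SNF chromatin remodelling complexes encoded by SMARCA4, against MITF, the transcription factor that drives the melanocyte programme, or a scrambled sequence (shSCR). The 501Mel libraries were shBRG1 with its control shSCR1 (3 each) and shMITF with its control shSCR2 (2 each), and Hermes 3A had 3 libraries each of shSCR, shBRG1 and shMITF, 19 libraries in all. The question asked of each knockdown was how the genes followed here changed against the scrambled control, and whether the change differed between the melanoma cells and the melanocytes. Each target was silenced with a single shRNA, and 1 line stands for each cell type. Hermes 3A medium also held the phorbol ester TPA, cholera toxin, stem cell factor and endothelin-1, so a difference between the lines and a difference between their media cannot be told apart.

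MMPs are made as inactive zymogens and share a zinc-binding catalytic domain. They are usually grouped into collagenases, gelatinases, stromelysins and membrane-type enzymes. ADAMTS proteases carry thrombospondin repeats that tie them to the matrix, and their known substrates include the hyalectan proteoglycans, procollagens, fibrillin microfibrils and von Willebrand factor. TIMPs bind the active site one to one, TIMP2 also takes part in the activation of MMP2 by MMP14 at the cell surface, and TIMP3 stays bound to the matrix and inhibits several ADAMTS proteases as well. In melanoma, MMP2 and MMP14 are known for their part in invasion.

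The libraries held 29158502 to 78857900 counts. SMARCA4 fell by 2.36 on the log2 scale with shBRG1 in 501Mel and by 2.38 in Hermes 3A. MITF fell by 1.06 with shMITF in 501Mel and by 0.85 in Hermes 3A. BRG1 silencing also lowered MITF itself, by 1.55 in 501Mel and by 0.43 in Hermes 3A (edgeR adjusted p 8e-16 and 1.3e-09). The 2 scrambled groups of 501Mel stood apart from each other: 33% of the genes tested passed the thresholds between shSCR2 and shSCR1, and the shBRG1 results in 501Mel are therefore given against both. Levels are CPM, read counts relative to library size after TMM scaling over all 19 libraries, and a gene is called changed at an edgeR adjusted p below 0.05 with a log2 fold change beyond 1 in either direction. The summed level of 7 melanocyte lineage markers, all 7 present in every group, was 29283.0 to 31484.3 CPM in shSCR1, 3107.2 to 3401.2 in shBRG1, 20714.1 to 23226.4 in shSCR2 and 11356.5 to 11770.4 in shMITF of 501Mel. In Hermes 3A it was 63251.3 to 64443.7 CPM in shSCR, 30195.0 to 31837.7 in shBRG1 and 25892.8 to 33966.0 in shMITF. The summed level of 8 fibroblast markers, a cell type that expresses many MMPs, was 3.97 to 5.46 CPM in shSCR1 and 17.0 to 20.6 in shBRG1 of 501Mel, 8.18 to 9.63 in shSCR2 and 7.9 to 14.5 in shMITF. In Hermes 3A it was 76.0 to 85.1 CPM in shSCR, 145.1 to 152.9 in shBRG1 and 118.5 to 228.8 in shMITF. Of these 8 markers, COL3A1 was at 0 in shSCR2 and none was at 0 in the other groups. Most of the Hermes 3A sum came from COL1A2, at mean levels of 67.2 CPM in shSCR, 138.7 in shBRG1 and 141.6 in shMITF. LUM was lower there in shBRG1 (3.65 CPM) than in shSCR (6.4). In 501Mel shBRG1 most came from COL1A1 (8.75 CPM, against 1.8 in shSCR1) and LUM (7.15, against 1.7 in shSCR1 and 7.07 in shSCR2). Endothelial and leukocyte markers summed to at most 14.1 CPM in any library. Of 5 keratinocyte markers 2, KRT10 and TP63, had a row in every group, and they summed to 27.1 to 65.3 CPM, nearly all from KRT10. KRT5, KRT14 and KRT1 were at 0 in shSCR and shBRG1 of Hermes 3A and had no row in its shMITF libraries. Whether these marker shifts play a part in the changes below was not tested. The labels do not say that replicates came from separate cultures, so the p-values measure only the spread between these libraries, which may be technical. Because the RNA is from bulk cultures, fewer cells of a type and less RNA per cell cannot be told apart.

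In control cells the family was led by 4 genes, the membrane-type protease MMP14 and the inhibitors TIMP1, TIMP2 and, in Hermes 3A alone, TIMP3. Per kilobase of exon, the 501Mel shSCR1 order was MMP14 (109.5 CPM per kb), TIMP2 (79.3), TIMP1 (63.5), MMP2 (7.35) and ADAMTS17 (6.61). In Hermes 3A shSCR it was TIMP2 (414.5 CPM per kb), TIMP3 (321.7), MMP14 (255.2), TIMP1 (184.1), MMP17 (36.7) and ADAMTS1 (10.9). In 501Mel the per-kilobase ranges of TIMP2 and TIMP1 overlapped between libraries, as did those of MMP2 and ADAMTS17, and in Hermes 3A no neighbours in this order overlapped. The summed level of the TIMPs was 553.4 CPM in 501Mel shSCR1 and 4099.7 CPM in Hermes 3A shSCR, that of the MMPs 558.4 and 1373.9 CPM, and that of the ADAMTS proteases 101.7 and 137.5 CPM.

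Most of the family was lower in the melanoma line. Of 28 genes tested between 501Mel shSCR1 and Hermes 3A shSCR, 17 were lower and 7 higher in 501Mel, against 18.2% and 23.1% of all genes tested (41.4% in either direction), and the median difference was -1.7 on the log2 scale against 0.04 for all genes. With shSCR2 as the 501Mel group, 20 were lower, 16 of them the same genes, and 5 were higher, of which ADAMTS4, ADAMTS16 and ADAMTS17 were shared (background 22.9% lower and 20.7% higher). The largest gap among the inhibitors was that of TIMP3. Its level was 8.22, 8.44 and 9.06 CPM in the shSCR1 libraries, 2.09 and 2.01 in shSCR2, and 1551.0, 1435.6 and 1456.1 in Hermes 3A shSCR. The lines did not overlap, and the difference between 501Mel shSCR1 and Hermes 3A was -7.44 ± 0.064 (SE) on the log2 scale (edgeR adjusted p = 8e-30), and that of shSCR2 was -9.52.

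Several proteases also differed between the lines, by amounts that depended on the 501Mel control. MMP8, the neutrophil collagenase, stood at 0.327, 0.19 and 0.146 CPM in shSCR1, at 2.12 and 1.44 in shSCR2 and at 15.2, 13.4 and 16.0 in Hermes 3A shSCR (log2 difference from Hermes 3A -6.02 for shSCR1 and -3.13 for shSCR2). MMP17, a membrane-type MMP held by a lipid anchor, was at 5.85, 5.98 and 5.58 CPM in shSCR1, 23.8 and 30.2 in shSCR2 and 149.5, 156.3 and 134.7 in Hermes 3A (-4.66 and -2.45). ADAMTS7, a protease of cartilage oligomeric matrix protein, held 16 counts over the 3 shSCR1 libraries, 1 over the 2 of shSCR2 and 2366 over the 3 of Hermes 3A (-7.34 for shSCR1). In the other direction, ADAMTS17, whose human mutations cause a Weill-Marchesani-like syndrome, was at 51.5, 56.7 and 55.3 CPM in shSCR1, at 20 and 19.9 in shSCR2 and at 0.342, 0.176 and 0.296 in Hermes 3A (7.59 and 6.14). ADAMTS16 was at 8.18, 9.89 and 8.77 CPM in shSCR1, 1.24 and 0.966 in shSCR2 and 0.0684, 0.205 and 0.137 in Hermes 3A (6.06 and 3.0). For all 5 genes the 501Mel and Hermes 3A control libraries did not overlap. MMP1, MMP9 and ADAMTS14 passed as higher in 501Mel with shSCR1 (3.93, 1.53 and 2.69). With shSCR2 MMP9 was lower than in Hermes 3A (-4.14), and MMP1 and ADAMTS14 held too few counts for a test. MMP2 was 1.01 higher with shSCR1 and 0.8 higher with shSCR2. By the adjusted p alone 81.6% of all genes differed between the lines, and 26 of the 28 genes tested here.

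**Figure D1:**
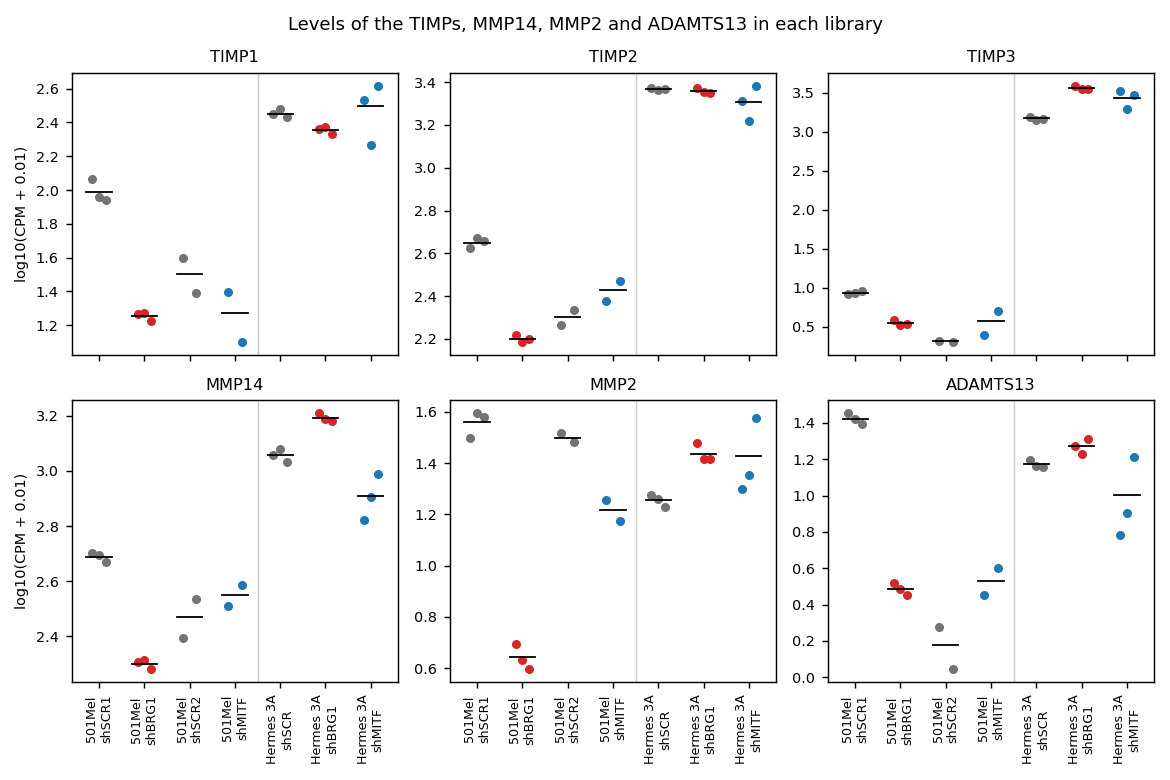
Levels of TIMP1, TIMP2, TIMP3, MMP14, MMP2 and ADAMTS13 in each of the 19 libraries, as log10 of CPM plus 0.01 with a separate axis range in each panel. Points are libraries, bars are group means, grey marks scrambled controls, red shBRG1 and blue shMITF. TIMP3 lies at 2.01 to 9.06 CPM in 501Mel and at 1435.6 to 3862.2 CPM in Hermes 3A. The 2 scrambled groups of 501Mel lie apart for TIMP1, TIMP2, TIMP3, MMP14 and ADAMTS13 and overlap for MMP2.

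BRG1 silencing in 501Mel cells changed most of the family when set against shSCR1. Of 32 genes tested, 10 rose and 12 fell, 68.8% together, where 39.1% of all 20514 genes tested were called (21.7% up and 17.4% down). The median log2 fold change was 0.14 for these genes and 0.05 over all genes. Of 17 MMPs 4 rose and 4 fell, of 12 ADAMTS proteases 6 rose and 5 fell, and the 3 TIMPs tested all fell. By the adjusted p alone 27 of these 32 genes passed, against 80.3% of all genes, and the 5 under the fold threshold were MMP8 (0.9), MMP16 (-0.98), MMP17 (0.52), MMP24 (0.94) and ADAMTS2 (-0.99). With library sizes in place of TMM the median of all genes moved from 0.05 to 0.4, and the share of rises among the called genes from 45.5% to 56.5%.

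The inhibitors fell against shSCR1. TIMP1, on the X chromosome within an intron of SYN1 on the other strand, was at 115.7, 91.3 and 86.7 CPM in shSCR1, at 18.4, 18.8 and 16.7 in shBRG1 and at 39.4 and 24.4 in shSCR2. The shBRG1 libraries were the lowest and did not overlap either control (log2 fold change -2.51 ± 0.098 against shSCR1, edgeR adjusted p = 4e-11, and -0.89 against shSCR2, adjusted p = 0.0014). TIMP2 stood at 419.7, 467.9 and 453.1 CPM in shSCR1, at 165.2, 153.6 and 158.5 in shBRG1 and at 184.5 and 215.5 in shSCR2. Here too shBRG1 was below both controls, by 1.56 against shSCR1 and 0.41 against shSCR2. TIMP3 was at 3.89, 3.33 and 3.41 CPM in shBRG1, between the values given above for shSCR1 and for shSCR2. It therefore fell by 1.33 against shSCR1 and lay 0.71 above shSCR2, so its direction depended on the control. TIMP4 held 0 counts in shSCR1 and 6 in shBRG1.

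Of the proteases that fell, MMP2 did so against either control. MMP2, the gelatinase that MMP14 and TIMP2 help to activate, was at 31.6, 39.3 and 37.9 CPM in shSCR1, at 32.8 and 30.4 in shSCR2 and at 4.92, 4.27 and 3.94 in shBRG1. The controls overlapped each other and lay far above every shBRG1 library, a fall of 3.11 ± 0.09 against shSCR1 (edgeR adjusted p = 2.5e-19) and of 2.93 ± 0.11 against shSCR2 (adjusted p = 1.2e-08). ADAMTS4, an aggrecanase, was at 1.53, 1.46 and 1.67 CPM in shSCR1, 3.39 and 1.48 in shSCR2 and 0.643, 0.482 and 0.473 in shBRG1, and fell by 1.59 and by 2.18 against the 2 controls. MMP14, the membrane-type protease, was at 502.8, 495.5 and 467.9 CPM in shSCR1, at 247.9 and 342.0 in shSCR2 and at 202.6, 206.5 and 191.4 in shBRG1. It was lowest in shBRG1, with a fall of 1.35 against shSCR1 and a difference of -0.64 from shSCR2, which did not reach the fold threshold. MMP16, a transmembrane MMP, was at 6.68, 5.75 and 6.37 CPM in shSCR1, 13.6 and 9.88 in shSCR2 and 3.62, 3.05 and 3.29 in shBRG1, the lowest group (-0.98 and -1.89). ADAMTS14, a procollagen N-propeptidase, held 139 counts over the shSCR1 libraries, 14 over the shSCR2 libraries and 3 over the shBRG1 libraries, mean levels of 1.03, 0.171 and 0.0181 CPM. Its ratio of shSCR1 to shBRG1 was 57.3, with a 95% exact counting interval of 19.2 to 280.9 that covers counting error only.

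For the other proteases called down against shSCR1, the shSCR2 libraries were as low as or lower than those of shBRG1. ADAMTS13, known for cutting von Willebrand factor, was at 28.4, 26.4 and 24.8 CPM in shSCR1, at 3.28, 3.07 and 2.84 in shBRG1 and at 1.89 and 1.1 in shSCR2. shBRG1 lay between the 2 controls, 3.18 below shSCR1 and 1.02 above shSCR2, and both differences passed the thresholds in opposite directions. ADAMTS16 was at 2.94, 2.27 and 3.17 CPM in shBRG1 and behaved the same way between the control values given above (-1.75 and 1.3). ADAMTS17, at 25.9, 26.2 and 27.5 CPM in shBRG1, fell by 1.1 against shSCR1 and lay 0.33 above shSCR2. MMP9, the second gelatinase, was at 1.31, 1.14 and 0.906 CPM in shSCR1, at 0.423, 0.345 and 0.394 in shBRG1 and at 0.0653 and 0 in shSCR2. It was 1.61 lower than in shSCR1, while shSCR2 held 2 counts in all. MMP11, or stromelysin 3, was at 1.33, 1.37 and 1.37 CPM in shSCR1, at 0.423, 0.431 and 0.335 in shBRG1 and at 0.392 and 0.354 in shSCR2. shBRG1 and shSCR2 overlapped for MMP11, with log2 differences of -1.82 from shSCR1 and 0.04 from shSCR2.

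Of the 10 rises against shSCR1, 8 were also called against shSCR2, by amounts that moved with the control. MMP10, for example, rose by 2.92 against shSCR1 and by 7.13 against shSCR2, the latter on 1 count in shSCR2. MMP3, a stromelysin, was at 0.123, 0.038 and 0.0877 CPM in shSCR1, at 0 in both shSCR2 libraries and at 2.18, 2.48 and 2.44 in shBRG1. All shBRG1 libraries lay above all controls (4.76 ± 0.28 against shSCR1, edgeR adjusted p = 1.7e-13). MMP10, the second stromelysin, was at 0.388, 0.152 and 0.0877 CPM in shSCR1, at 0 and 0.0136 in shSCR2 and at 1.91, 1.9 and 1.44 in shBRG1 (2.92 ± 0.29, adjusted p = 2.3e-09). ADAMTS5, the main aggrecanase of cartilage in mice, was at 0.123, 0.0949 and 0.0292 CPM in shSCR1, 0.0979 and 0.0544 in shSCR2 and 0.423, 0.327 and 0.315 in shBRG1, and rose by 1.92 and 2.28 against the 2 controls. ADAMTS6, which acts on microfibril-associated matrix, was at 0.204, 0.0949 and 0.0292 CPM in shSCR1, 0.0979 and 0.109 in shSCR2 and 0.862, 0.724 and 0.867 in shBRG1 (2.71 and 2.84). In both genes the shBRG1 libraries were higher than all 5 controls. MMP20, MMP23B, ADAMTS12 and ADAMTS15 rose against either control as well, at no more than 1.02 CPM in any 501Mel library. MMP20 held 1 count over the shSCR1 libraries and 44 over the shBRG1 libraries, a ratio of 35.6 with a 95% counting interval of 6.06 to 1437.6. ADAMTS15 held 13 and 144 counts, and its neighbour on chromosome 11, ADAMTS8, 16 and 1. The 2 remaining rises depended on the control. ADAMTS1, an aggrecanase that also releases heparin-binding growth factors, was at 7.95, 7.21 and 6.87 CPM in shSCR1, 14.4 and 12.9 in shSCR2 and 19.3, 16.9 and 18.7 in shBRG1. It was highest in shBRG1 (1.25 against shSCR1 and 0.35 against shSCR2). ADAMTS20, a versican-cleaving protease needed for melanoblast survival in mouse skin, was at 0.45, 0.588 and 0.175 CPM in shSCR1, 1.93 and 0.694 in shSCR2 and 1.35, 0.879 and 1.26 in shBRG1. shBRG1 overlapped shSCR2 for this gene (1.36 and -0.11).

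Most of the rises called against shSCR1 were called against shSCR2 as well, and most of the falls were not. With shSCR2 as the control, 17 of 32 genes rose and 6 fell (background 32% and 20.1%), and 8 of the 10 rises but 2 of the 12 falls, MMP2 and ADAMTS4, were among them. ADAMTS14, another of the 12 falls, held too few counts for a test in that comparison. In that comparison 3 of the falls, MMP9, ADAMTS13 and ADAMTS16, were called as rises. With all 5 controls pooled, 9 of 33 genes rose and 7 fell (20.6% and 14.6%, together 35.2%), of which 8 and 6 were shared with the comparison against shSCR1. Between the scrambled groups themselves, 15 of 26 genes were lower and 4 higher in shSCR2 than in shSCR1 (20.7% and 12.3% of all genes, and 69.8% by the adjusted p alone), including TIMP1 (-1.62), TIMP2 (-1.15), TIMP3 (-2.05) and ADAMTS13 (-4.23). Where shSCR2 is the lower control, a rise against it is easier to call and a fall harder. The rises are therefore not shown to be the firmer calls. MITF was 0.97 higher and SMARCA4 0.83 higher in shSCR2. Whether the vectors, the cultures or the time of preparation differed between shSCR1 and shSCR2 is not given in the sources used here.

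**Figure D2:**
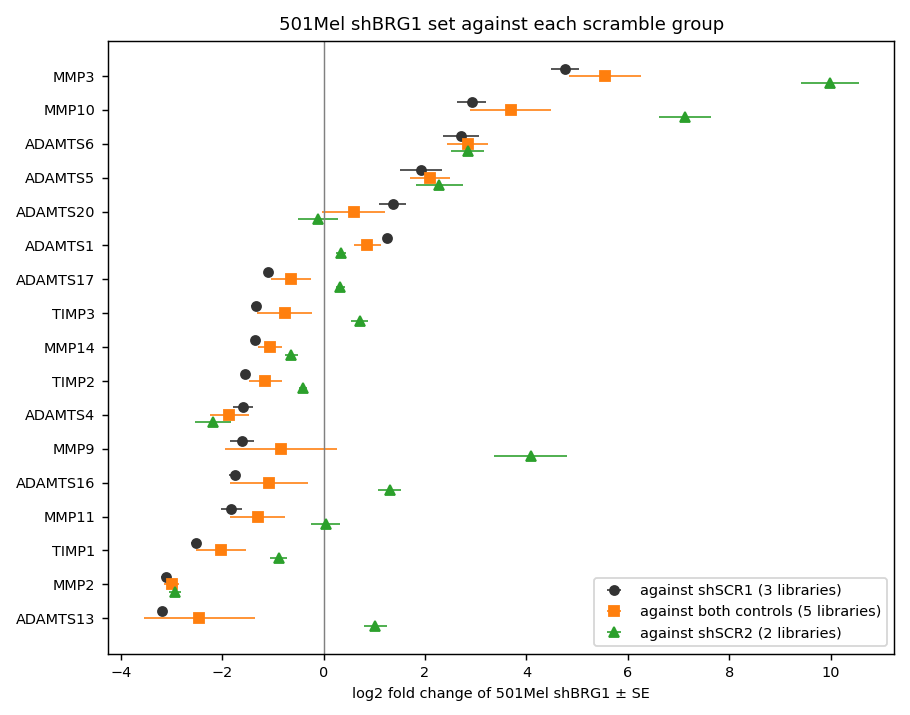
Log2 fold change ± SE of 501Mel shBRG1 for 17 genes of the family that were called against shSCR1, set against shSCR1 (3 libraries, black), both scrambled groups (5 libraries, orange) and shSCR2 (2 libraries, green). MMP2 keeps nearly the same value (-3.11, -3.0 and -2.93), ADAMTS13 crosses 0 (-3.18 and 1.02), and the green points of MMP3, MMP10 and MMP9 rest on 0, 1 and 2 counts in shSCR2 and bound nothing.

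In Hermes 3A melanocytes BRG1 silencing raised members of the family far more often than it lowered them. Of 26 genes tested 6 rose and 1 fell, against 5.78% and 3.47% of 17222 genes (9.26% together), with a median of 0.43 against 0.01 over all genes. By the adjusted p alone 17 of the 26 passed, against 56.9% of all genes, and of the 10 under the fold threshold 9 lay above 0. TIMP3 was at 1551.0, 1435.6 and 1456.1 CPM in shSCR and at 3862.2, 3534.7 and 3583.0 in shBRG1. The groups were far apart (1.32 ± 0.044, edgeR adjusted p = 4.4e-20). TIMP1 was at 280.0, 301.0 and 270.3 CPM in shSCR and at 228.9, 234.9 and 214.3 in shBRG1 (-0.32, adjusted p = 5e-07), and TIMP2 at 2369.6, 2297.4 and 2338.3 and at 2348.8, 2257.3 and 2225.9 (-0.02). TIMP1 did not overlap between the groups and TIMP2 did. TIMP4 held 1 count in each group.

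Among the proteases, ADAMTS5 and ADAMTS6 rose as in 501Mel. ADAMTS5 was at 1.23, 0.939 and 1.23 CPM in shSCR and at 4.52, 5.05 and 5.03 in shBRG1 (2.1 ± 0.16, edgeR adjusted p = 5.3e-12). ADAMTS6 was at 0.228, 0.235 and 0.228 CPM in shSCR and at 0.735, 1.64 and 1.22 in shBRG1 (2.4 ± 0.35, adjusted p = 1.2e-06). Neither gene overlapped between the groups. ADAMTS7 was at 20.2, 20.4 and 17.8 CPM in shSCR and at 46.8, 38.7 and 43.7 in shBRG1 (1.16). MMP25, a lipid-anchored MMP found in leukocytes, was at 1.09, 0.88 and 0.57 CPM in shSCR and at 2.44, 1.78 and 2.08 in shBRG1 (1.32), and its exons overlap those of MMP25-AS1 on the other strand. For both genes the 3 shBRG1 libraries lay above all of shSCR. MMP1, the interstitial collagenase, rose on 17 against 52 counts (1.34). The only fall was that of ADAMTS2, a procollagen N-propeptidase, from 13.4, 13.8 and 11.8 CPM to 6.51, 5.43 and 5.7 (-1.14 ± 0.095, adjusted p = 3.5e-11).

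Several genes that were lower with shBRG1 than with shSCR1 in 501Mel, MMP2 among them, passed the adjusted p alone in Hermes 3A with values above 0. MMP2 was at 18.9, 18.2 and 16.9 CPM in shSCR and at 30.0, 26.0 and 26.0 in shBRG1 (0.61). MMP14 was at 1144.8, 1195.5 and 1077.2 CPM and at 1616.4, 1534.3 and 1516.7 (0.46), and MMP11 at 21.7, 20.2 and 19.2 and at 37.1, 35.8 and 35.0 (0.83). In each of these genes every shBRG1 library was above every shSCR library. MMP15, a transmembrane MMP, was at 11.6, 9.74 and 9.46 CPM and at 20.1, 17.5 and 17.8 (0.86). ADAMTS1 was at 80.1, 75.0 and 75.3 CPM and at 154.6, 147.3 and 146.5 (0.97), and ADAMTS13 at 15.7, 14.5 and 14.4 and at 18.8, 16.9 and 20.4 (0.34). MMP17 (0.4), MMP24 (0.38) and ADAMTS10 (0.51) completed the list of genes above 0, and TIMP1 was below it.

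The test of the difference itself set the BRG1 effect in 501Mel against that in Hermes 3A. With shSCR1 as the 501Mel control it was called for 20 of 36 genes (background 26.9%), with 17 more negative and 3 more positive in 501Mel (14.9% and 12% of all genes). With shSCR2 it was called for 7 as more negative and 12 as more positive (15.6% and 20%), and 5 and 3 of them were shared. The 5 were MMP2, MMP14, MMP16, ADAMTS4 and ADAMTS14, and the 3 were MMP3, ADAMTS12 and ADAMTS15. MMP3 held 4 counts in Hermes 3A shSCR and 0 in shBRG1, ADAMTS14 held 19 and 29, and ADAMTS15 held 28 and 12. These genes entered the test through 501Mel alone, so their differences say nothing of a BRG1 effect in Hermes 3A. The 20 calls with shSCR1 also hold ADAMTS7, ADAMTS10 and ADAMTS16, each tested for shBRG1 in a single line. MMP2 differed by -3.75 ± 0.12 with shSCR1 and by -3.51 ± 0.13 with shSCR2 (edgeR adjusted p = 1.1e-25 and 5.8e-15), and MMP14 by -1.85 and -1.07. TIMP3 differed by -2.68 with shSCR1 and by -0.57 with shSCR2, TIMP2 by -1.56 and -0.36, and TIMP1 by -2.23 and -0.54. With shSCR2 none of the 3 inhibitors reached the fold threshold, and TIMP1 missed the adjusted p as well (0.052 by edgeR). For ADAMTS5 and ADAMTS6, which rose in both lines, the difference was -0.21 ± 0.58 and 0.28 ± 0.58 with shSCR1, and neither passed.

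**Figure D3:**
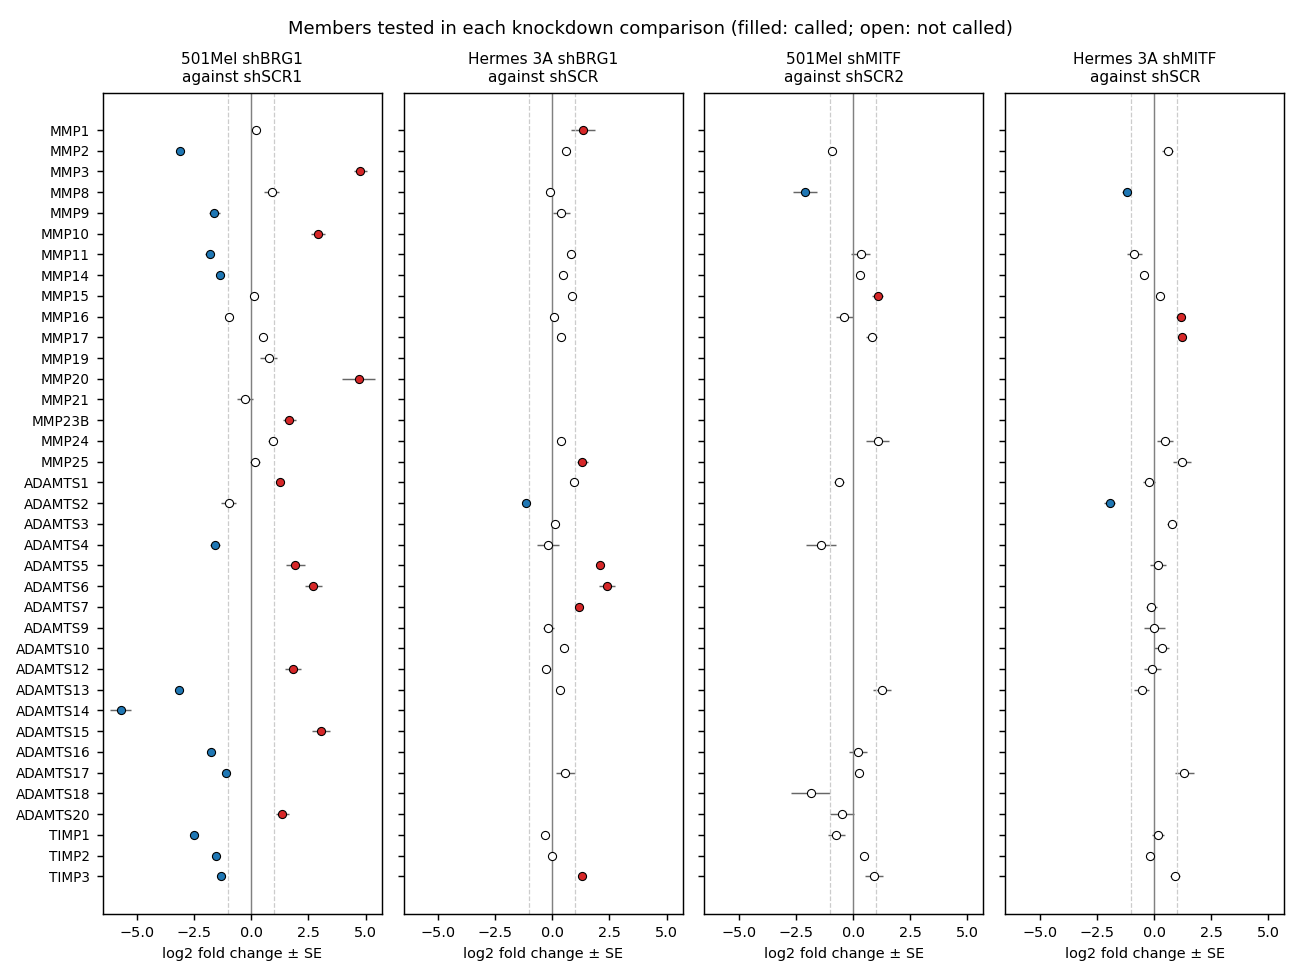
Log2 fold change ± SE of the 37 genes of the family tested in at least 1 knockdown comparison, in gene order from MMP to ADAMTS to TIMP. Filled points are called (red up, blue down), open points are not, and dashed lines mark a log2 fold change of 1 in either direction. The 501Mel shBRG1 panel holds 22 called genes and the other panels 7, 2 and 4.

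With MITF silencing the share of these genes called in 501Mel, 11.1%, was near that of all genes. In 501Mel, against shSCR2, 1 of 18 genes rose and 1 fell (background 5.59% and 3.4%, together 8.99%), and in Hermes 3A 2 of 22 rose and 2 fell (3.35% and 4.04%, together 7.39%). Leaving out 1 library moved the 501Mel counts, to 5 rises and 6 falls without shMITF replicate 1, 1 and 0 without shMITF replicate 2, 2 and 1 without shSCR2 replicate 1 and 0 and 1 without shSCR2 replicate 2. The medians were 0.24 and 0.17, against 0.01 and 0.05 over all genes. MMP8 was the one gene called in both lines. It was at 2.12 and 1.44 CPM in shSCR2 and at 0.617 and 0.193 in shMITF of 501Mel (-2.1 ± 0.53, edgeR adjusted p = 0.023). In Hermes 3A it was at 15.2, 13.4 and 16.0 CPM in shSCR and at 5.17, 7.45 and 6.49 in shMITF (-1.2 ± 0.19, adjusted p = 0.0051). The groups overlapped in neither line. The 501Mel call was lost without shMITF replicate 2 (-1.5), and the shSCR1 libraries, at 0.146 to 0.327 CPM, lay in the range of shMITF or below it. With shBRG1 in Hermes 3A, MMP8 was at 13.6, 14.1 and 13.4 CPM (-0.11).

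In Hermes 3A ADAMTS2 fell with shMITF too, to 2.5, 4.34 and 3.19 CPM (-1.94 ± 0.24, edgeR adjusted p = 0.0021), against the same shSCR libraries that served for shBRG1. MMP17 rose from the shSCR values above to 349.0, 254.4 and 411.6 CPM (1.23 ± 0.18, adjusted p = 0.0044). MMP16 was at 20.1, 17.7 and 21.7 CPM in shSCR and rose to 56.5, 36.3 and 39.1 (1.17 ± 0.19, adjusted p = 0.0054), and this call was lost without shMITF replicate 1 (0.94). None of the 3 genes overlapped between the groups. In 501Mel MMP15 was at 18.3 and 11.5 CPM in shSCR2 and at 27.6 and 32.7 in shMITF (1.07 ± 0.24, adjusted p = 0.017), a call that was lost without shMITF replicate 2 (0.9) or without shSCR2 replicate 2 (0.74). MMP2 was at 18.0 and 14.9 CPM in 501Mel shMITF, below both shSCR2 libraries (-0.91, adjusted p = 0.0056), and at 19.9, 22.6 and 37.8 CPM in Hermes 3A shMITF (0.59, adjusted p = 0.12). The difference between the lines was -1.51 ± 0.33 (adjusted p = 0.03), the one of 30 differences called for shMITF (background 2.64%), and no difference was called by edgeR without shMITF replicate 2 or without either shSCR2 library of 501Mel.

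Set against each other within 501Mel, the shBRG1 and shMITF effects differed for 15 of 34 genes, 10 lower and 5 higher with shBRG1 (background 15.5% and 11.8%). With 1 control for both knockdowns the control cancels out, so the shBRG1 libraries were also compared directly with those of shMITF, without any scrambled library. There 4 of 33 genes were lower and 16 higher with shBRG1 (16.8% and 27.1%). MMP2, ADAMTS1 and ADAMTS15 were called either way.

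The inhibitors were not called with shMITF in either line. In 501Mel TIMP1 was at 24.9 and 12.6 CPM (-0.74 against shSCR2), TIMP2 at 239.6 and 295.6 (0.46) and TIMP3 at 2.47 and 5.02 (0.92). In Hermes 3A TIMP1 was at 342.9, 185.7 and 412.8 CPM (0.17), TIMP2 at 2043.5, 1660.7 and 2408.8 (-0.17) and TIMP3 at 3310.0, 1934.0 and 2994.1 (0.91, edgeR adjusted p = 0.023). All shMITF libraries of Hermes 3A lay above shSCR for TIMP3, and the groups overlapped for TIMP1 and TIMP2. ADAMTS13 was at 2.82 and 3.98 CPM in 501Mel shMITF (1.25 against shSCR2), above both shSCR2 libraries and far below the shSCR1 libraries. The shMITF libraries of Hermes 3A differed from each other more than those of any other group.

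A block of MMP genes on chromosome 11 behaved unevenly. From MMP7 to MMP13, all on the minus strand between positions 102520508 and 102955734 of GRCh38, the listed genes run in the order MMP7, MMP20, MMP27, MMP8, MMP10, MMP1, MMP3 and MMP13, and the pseudogene WTAPP1 overlaps MMP10, MMP1 and MMP3 on the other strand. In 501Mel shBRG1 against shSCR1, MMP20, MMP10 and MMP3 rose, while MMP8 (0.9) and MMP1 (0.22), which lie between them, were not called. Against shSCR2, however, MMP1 was called as a rise (6.87) and MMP8 as a fall (-2.03), so for these genes the pattern depended on the control. MMP1 was at 2.49, 1.97 and 1.99 CPM in shSCR1 and at 1.94, 2.88 and 3.11 in shBRG1, and held 2 counts over both shSCR2 libraries. MMP13, not tested, held 0 counts in shSCR1 and 10 in shBRG1, and MMP7 and MMP27 held 1 count each in shBRG1, with 6 and 0 in shSCR1. In Hermes 3A MMP3, MMP10 and MMP20 held at most 4 counts over any group. Whether reads were counted by strand is not given in the sources used here, so reads in the short exonic stretches that WTAPP1 shares with MMP1 and MMP3 cannot be told apart, while it shares no exonic bases with MMP10.

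**Figure D4:**
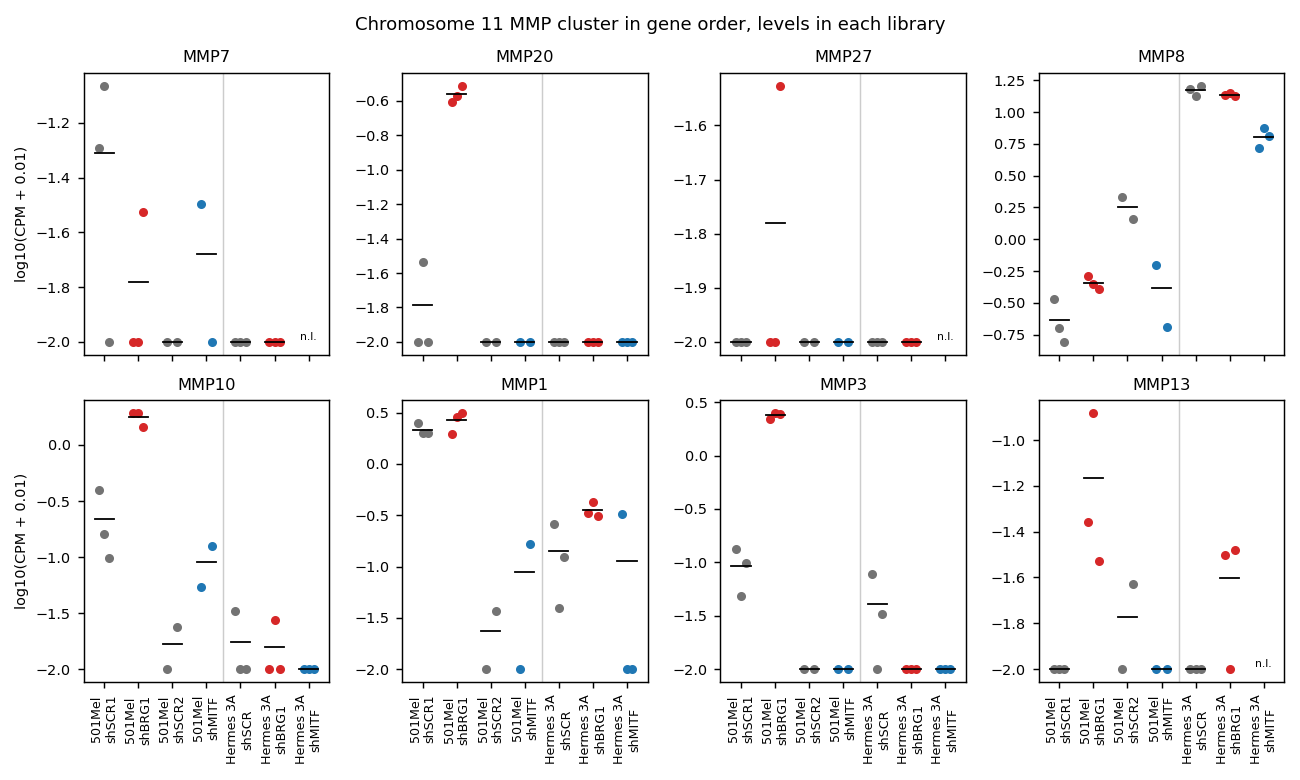
Levels of the 8 listed MMP genes of the chromosome 11 block in genomic order in each of the 19 libraries, as log10 of CPM plus 0.01 with a separate axis range in each panel. Points are libraries, bars group means, and n.l. marks a group with no row. MMP20, MMP10 and MMP3 are highest in 501Mel shBRG1 (0.237 to 2.48 CPM), whereas MMP8 is highest in Hermes 3A (5.17 to 16.0 CPM).

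The promoters of some of these genes are shown because the block and most of the rest of the family differ in their letters. No RefSeq promoter was at hand for MMP2 or MMP3. Each run is the 150 bases before the RefSeq start of the gene (GRCh38.p14), read along the gene's strand. Capitals mark matches on either strand to 5 motifs. The first is TGAATCA, an AP-1-like site. The second is TATAAA, known as the TATA box. The E-box CACGTG, of the kind that MITF binds, is another. Its variant form CATGTG was searched as well. Last comes GGGCGG, usually called the GC box.
MMP10: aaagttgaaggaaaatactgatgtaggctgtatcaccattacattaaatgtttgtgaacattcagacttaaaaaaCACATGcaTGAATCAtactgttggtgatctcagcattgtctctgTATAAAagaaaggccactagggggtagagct
MMP20: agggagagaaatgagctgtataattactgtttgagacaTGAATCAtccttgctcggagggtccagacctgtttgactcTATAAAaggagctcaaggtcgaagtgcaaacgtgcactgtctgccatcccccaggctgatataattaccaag
MMP8: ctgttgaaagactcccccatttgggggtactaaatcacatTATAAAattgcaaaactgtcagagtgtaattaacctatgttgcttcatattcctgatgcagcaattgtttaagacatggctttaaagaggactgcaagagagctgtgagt
ADAMTS6: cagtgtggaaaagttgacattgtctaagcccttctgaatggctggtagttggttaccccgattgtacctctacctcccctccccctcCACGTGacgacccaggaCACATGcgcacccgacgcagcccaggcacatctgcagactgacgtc
TIMP3: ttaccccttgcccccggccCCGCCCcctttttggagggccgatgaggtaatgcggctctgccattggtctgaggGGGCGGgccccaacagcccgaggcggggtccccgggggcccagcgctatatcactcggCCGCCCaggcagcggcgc
They lie at chr11:102780629-102780778, chr11:102625333-102625482, chr11:102724955-102725104 and chr5:65481921-65482070 on the minus strand and at chr22:32801555-32801704 on the plus strand. The MMP8 window lies inside the longest GENCODE transcript of that gene, which starts further upstream.

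RefSeq windows of 250 bases before to 50 after the start were at hand for 26 of the 43 genes, 5 of them in the chromosome 11 block. TATAAA was found in 4 of the 5 windows of the block (MMP7, MMP8, MMP10 and MMP20) and in 2 of the other 21 (MMP21 and ADAMTS10), against 11.5% of 35116 promoters. Its position relative to the start varied: -30 in MMP7, -31 in MMP10, -72 in MMP20 and -110 in MMP8, with -92 in MMP21 and -78 in ADAMTS10. Not every match is therefore placed alike. GGGCGG was in none of the 5 and in 19 of the 21, TIMP1, TIMP3 and MMP14 among them, against 45%. ADAMTS6, shown above, and MMP21 were without it. TGAATCA, a motif chosen after the sequences were seen, was in MMP10, MMP20 and ADAMTS12 (2.98% of promoters). These genes rose with shBRG1 in 501Mel against either control, but so did MMP23B and ADAMTS6, whose windows lack the motif. Because of that choice, nothing is read from the match between motif and response. The canonical AP-1 site TGAGTCA was in MMP7 alone (4.95%). CACGTG was in ADAMTS6, MMP21 and ADAMTS17 (7.26%), and CATGTG in ADAMTS6, MMP8 and MMP10 (11.1%). A match of letters is a description, and neither MITF nor BRG1 binding was measured here.

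Partners of these enzymes were followed through 5 lists of genes, whose counts stand beside the shares of all genes called. With shBRG1 in 501Mel those shares were 21.7% up and 17.4% down against shSCR1 and 32% and 20.1% against shSCR2, with shMITF in 501Mel 5.59% and 3.4%, and in Hermes 3A 5.78% and 3.47% with shBRG1 and 3.35% and 4.04% with shMITF. Nothing particular to a list is read from its count. The first list held activators and other regulators of MMPs, among them the protease inhibitors A2M and TFPI2. Of its genes, 4 of 14 tested rose and 6 fell with shBRG1 in 501Mel against shSCR1, with a median of -0.36. Among those called, PCSK5, a proprotein convertase, rose by 3.65, LRP1, an endocytic receptor that clears MMP and TIMP complexes, fell by 3.26 and CD44, a hyaluronan receptor, by 2.68. Against shSCR2, 6 of the 14 rose and 1 fell, and LRP1 and CD44 were no longer called. In Hermes 3A shBRG1, 3 of 14 rose and none fell, with FURIN, which activates membrane-type MMPs, at 2.14 and THBS1, a matricellular protein, at 2.58. With shMITF 3 of 11 rose in 501Mel, among them A2M (2.0) and FURIN (1.09), and 4 of 13 in Hermes 3A, where THBS1 (4.73), A2M (2.13), TFPI2 (1.68) and FURIN (1.62) rose. THBS1 and A2M varied widely between the Hermes 3A shMITF libraries. Their means were 285.3 and 9563.7 CPM, with standard deviations of 282.9 and 8698.7.

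FURIN, singled out after its values were seen, was called up in all 4 comparisons, of which those in Hermes 3A share their controls, and in 501Mel shBRG1 against both controls (2.27 and 1.25). Of the ADAM proteases, 1 of 7 rose and 3 fell with shBRG1 in 501Mel: ADAM19 by 3.55, and ADAM12, ADAM10 and ADAM9 by -3.76, -2.01 and -1.38. Against shSCR2 the values were 5.82 for ADAM19, -1.71 for ADAM12 and -1.65 for ADAM10, and ADAM9 (-0.99) was no longer called. ADAM19 also rose with shMITF in 501Mel (3.41) and with shBRG1 in Hermes 3A (1.1), and no ADAM was called with shMITF in Hermes 3A, where 9 were tested by edgeR. The ADAMTS-like proteins, which lack the protease domain, gave 3 rises of 7 in 501Mel shBRG1 and 2 falls of 6 in Hermes 3A shMITF (PAPLN -1.15 and ADAMTSL3 -1.02), with 0 of 5 called in the other comparisons. Of the hyalectans and link proteins that ADAMTS proteases cut or meet, 0 rose and 2 of 6 fell with shBRG1 in 501Mel and 1 of 3 fell with shMITF. In Hermes 3A 1 of 3 rose and 1 fell with shBRG1, and 1 of 3 fell with shMITF. BCAN, the brevican core protein, fell in all 4 comparisons (-3.19 and -1.87 in 501Mel, -2.71 and -2.36 in Hermes 3A, shBRG1 first), and by 1.92 with shBRG1 against shSCR2. ACAN, or aggrecan, rose with shBRG1 in Hermes 3A (1.12). Of 14 AP-1, ETS and RUNX factors, 5 rose and 2 fell in 501Mel shBRG1, where RUNX1 (2.32), FOSL1 (2.26), JUN (2.13) and JUND (2.08) rose. With shMITF in 501Mel 4 rose and 1 fell (RUNX2 2.08, FOSL1 1.68, JUND 1.56 and ETS1 -1.43). With shSCR2 as the control of shBRG1, 2 ADAM proteases rose and 2 fell, 4 ADAMTS-like genes rose, 3 hyalectans and link proteins rose and 2 fell, and 7 of the factors rose and 2 fell. In Hermes 3A RUNX1 alone was called with shBRG1 (1.34), and RUNX2 (2.01), RUNX1 (1.01) and ETS1 (-1.07) were called with shMITF.

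Of the remaining genes, MMP19 and MMP21 reached at most 0.423 CPM in any library and passed in no knockdown comparison against the control of the design. ADAMTS3, ADAMTS9 and ADAMTS10 were expressed in Hermes 3A (0.665 to 7.22 CPM) and at most 0.154 CPM in 501Mel, and none was called with either knockdown. ADAMTS18 held 76 counts over the shSCR2 libraries, 5 over shSCR1, 20 over shBRG1 and 19 over shMITF, 18 of them in 1 library. ADAMTS19 held 24 counts in shBRG1 and 1 in shSCR1, and 24 of its 25 shMITF counts came from 1 library.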

How the data were processed

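The authors sequenced total RNA depleted of ribosomal RNA on a HiSeq2500 and deposited whole-number counts of reads per gene, 1 file per library. Per the labels and the submitters' processing notes, CASAVA 1.8, TopHat 1.4.1, Bowtie 0.12.7 and hg19 were used, and the counter, its annotation and its strand setting are not given in the sources used here. Counts were tested with edgeR 4.0.16 (R 4.3.3): filterByExpr, TMM, robust quasi-likelihood fits and Benjamini-Hochberg adjustment over all genes tested. Calls needed an adjusted p below 0.05 and a log2 fold change beyond 1. Each comparison used its own groups, and differences between effects were interaction terms. The scripts were tested on simulated data. Gene positions, exon lengths and overlaps came from GENCODE annotation of GRCh38, matched by Ensembl identifier, and promoters from RefSeq. Counting intervals are exact at 95%.

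Named with values are genes called in at least 1 of 4 knockdown comparisons with a mean of at least 50 counts in the higher group, and the TIMPs. At most 4 genes are named per list by size of change. The values of 1 list gene are not reported here. Genes and lists were chosen with earlier results of these data known. Alternatives included DESeq2 1.42.0, library sizes, other filters, other controls, a replicate block and leaving out each library.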

Additional observations from a re-analysis of the deposited data

Results flagged for a closer look

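The change with shBRG1 differed between 501Mel (against shSCR1) and Hermes 3A, by the edgeR interaction term, for MMP2 by -3.75 on the log2 scale, MMP9 by -2.03, MMP11 by -2.68, MMP14 by -1.85, MMP16 by -1.07 and MMP25 by -1.2. Among the ADAMTS proteases it differed for ADAMTS4 by -1.44, ADAMTS7 by -2.51, ADAMTS13 by -3.55, ADAMTS16 by -2.26 and ADAMTS17 by -1.69, and among the inhibitors for TIMP1 by -2.23, TIMP2 by -1.56 and TIMP3 by -2.68. All 14 values were more negative in 501Mel. The 3 differences called as more positive there, MMP3, ADAMTS12 and ADAMTS15, were not among those flagged. ADAMTS7 held 16 counts over shSCR1 and 8 over shBRG1 of 501Mel. ADAMTS16 held 16 counts over shSCR and 27 over shBRG1 of Hermes 3A. Each was tested in the other line alone, so its difference shows no BRG1 effect in the line where it is low. With shSCR2 as the 501Mel control, MMP2, MMP14, MMP16 and ADAMTS4 of the 14 were called as more negative as well, and MMP9 (3.69) and MMP25 (1.86) were called in the opposite direction. Of all 37 genes tested with that control, 7 were called as more negative and 12 as more positive in 501Mel. The change with shMITF differed between the lines for MMP2, by -1.51.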

How the results depend on the processing

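Alternatives with other controls in 501Mel were added after the data were seen. For shBRG1 in 501Mel the rises numbered 10 and the falls 12. A floor of 10 counts per library left 2 rises. With shSCR2 as the control 17 rose and 6 fell, and with both scrambled groups pooled 7 fell. Against shSCR2 the sign turned for MMP9 (4.08), MMP11 (0.04), ADAMTS13 (1.02), ADAMTS16 (1.3), ADAMTS17 (0.33), ADAMTS20 (-0.11) and TIMP3 (0.71). For shMITF in 501Mel (1 up, 1 down) the rises were 2 with library sizes, DESeq2, the floor of 10 counts or the replicate block, 4 without a filter or with all groups fitted and 0 with glmTreat, and the falls were 3 without a filter, 2 with the block, all groups or no fold threshold and 0 with glmTreat. For shBRG1 in Hermes 3A (6 up, 1 down) 3 rose and 0 fell with glmTreat, and 15 and 2 without a fold threshold. For shMITF in Hermes 3A (2 up, 2 down) 0 rose and 1 fell with glmTreat, and 4 rose with all groups or no fold threshold. The BRG1 difference between the lines was called for 9 genes with the floor of 10 counts, and the MITF difference for 3 with DESeq2 or no filter and 2 with the block. With that floor the lines differed for 2 genes higher and 10 lower, and the scrambled groups for 9. The cause of these shifts was not tested, apart from the fewer genes that the filter on 10 counts leaves.

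Leaving out 1 library gave 10 to 13 rises and 12 to 14 falls for shBRG1 in 501Mel, 0 to 5 and 0 to 6 for shMITF in 501Mel, 5 to 6 and 1 to 1 for shBRG1 in Hermes 3A and 2 to 3 and 2 to 4 for shMITF in Hermes 3A. The differences ranged over 18 to 20 calls for BRG1 between the lines, 0 to 2 for MITF and 13 to 18 between the knockdowns, the lines over 7 to 10 higher and 17 to 17 lower, and the scrambled groups over 16 to 21. Log2 levels of same-numbered knockdown and control libraries, taken as deviations from their group means, correlated at -0.106 to 0.189 over 14169 genes. With 2 libraries per group, as for shMITF in 501Mel, these deviations mirror each other, and the values were 0.0746 or -0.0746. The numbers were not taken as pairs, and the replicate block left 29 of 29 calls on single genes as they were. Of 413 alternatives for these 29 calls, 377 kept the call, 29 lost it and 7 turned sign.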

Other observations

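Some of the genes too low for a test were uneven between libraries. ADAMTS8 held 3 and 45 counts in the 501Mel shMITF libraries against 0 and 3 in shSCR2, and 16, 5 and 6 in Hermes 3A shMITF against 3, 3 and 2 in shSCR. ADAMTS19 held 1 and 24 counts in 501Mel shMITF and 0 in both shSCR2 libraries.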
